A study of Homo sapiens with 18 samples.

Results

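The 10 genes described here are 9 members of the T-box family of transcription factors (TBX1, TBX2, TBX3, TBX4, TBX5, TBX6, TBX15, TBX18 and TBX20) and MGA, which carries a T-box domain beside another DNA-binding domain. They were taken by symbol from the 63677 Ensembl genes of a count table, and all 10 were found. The table covers 18 RNA-seq libraries of NCI-H1299, a human lung cancer cell line, in 6 groups of 3 labelled Ctl, EV, TBX2, TBX3, TBX4 and TBX5. Cells of 4 groups were transiently transfected with a plasmid for a human TBX2 or TBX4 with a Flag tag, a human TBX3 with an HA tag, or a mouse Tbx5 with an HA tag. TBX2 and TBX4 were in a pORF vector, and TBX3 and Tbx5 were in a pCGN vector. Comparisons across these vectors therefore cannot tell the gene apart from the vector and tag. EV cells received the empty vector, and the sources used here do not say which of these it was. What Ctl cells received is not given in those sources either. Transient transfection reaches part of the cells, so each value averages over cells with and without plasmid. Nothing in the labels says whether the replicates a, b and c came from separate cultures, so p-values measure the spread between these libraries. The library taken as TBX4 replicate c carries the number of that group but a title ending in TBX5, and the main TBX4 results are also given without it.

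T-box proteins bind DNA through a shared domain and switch genes on or off during development. TBX2 and TBX3 mostly act as repressors and can block senescence, while TBX4 and TBX5 are known for limb, heart and lung formation. MGA pairs with MAX through its other domain, a helix-loop-helix zipper, and holds together a variant Polycomb complex, PRC1.6, that keeps germline genes silent.

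Library totals ran from 7365221 to 11743179 counts. The most counted gene of every library, ENSG00000266658, which the annotation gives no symbol, took between 10.7% of the counts in TBX3 replicate c and 53.5% in TBX5 replicate b. It took 12.4% in EV replicate c, against 30.3% to 40.2% in the other control libraries. Values below are CPM, the counts of a gene relative to those of its library, after scaling by TMM, a method that equalizes the bulk of genes between libraries. Leaving that gene and the 4 plasmid genes out of the scaling gave 4, 2, 3 and 3 members past the threshold with TBX2, TBX3, TBX4 and TBX5, as did the scaling with them. A level of 3 counts, taken as the floor of detection, equals 0.191 to 0.594 CPM on this scale. No molecular identifiers mark copies of the same molecule here, so floors and intervals cover counting error only.

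The cell line was checked against markers. Of 15 markers, 14 were matched and 5 passed the low-count filter. KRT8, KRT18 and VIM, an epithelial keratin pair and a mesenchymal filament, stood at 37.6 ± 2.86, 70.1 ± 5.39 and 894.9 ± 40.5 CPM (SD, n = 6) in the controls. NKX2-1, NAPSA, SFTPB, SFTPC, EPCAM, KRT19 and CDH1, which mark lung epithelium and adenocarcinoma, had at most 10 counts in any library, and so did PTPRC of leukocytes and COL1A1 of fibroblasts.

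The transfected genes checked the labels first. TBX2 had 4069 CPM in replicate a, 4804 in b and 4484 in c of the TBX2 libraries, against 3.07, 3.80 and 4.82 CPM as the lowest, median and highest of the 6 controls. TBX3 had 17699, 25355 and 22474 CPM in replicates a, b and c of its own group, against 1.37, 2.31 and 3.32 CPM in the controls by the same order. TBX4 had 7514, 8463.5 and 7858 CPM in TBX4 replicates a, b and c, and 1 count in all 6 controls together. On the human TBX5 gene, the mouse plasmid gave 128, 230 and 242 CPM in replicates a, b and c of the TBX5 group, and the 6 controls had 0 counts. Each gene was thus far higher in its own group than in any control library, with no overlap. TBX4 replicate c had TBX4 at the level of the other 2 TBX4 libraries and 1 count of TBX5.

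**Figure D1:**
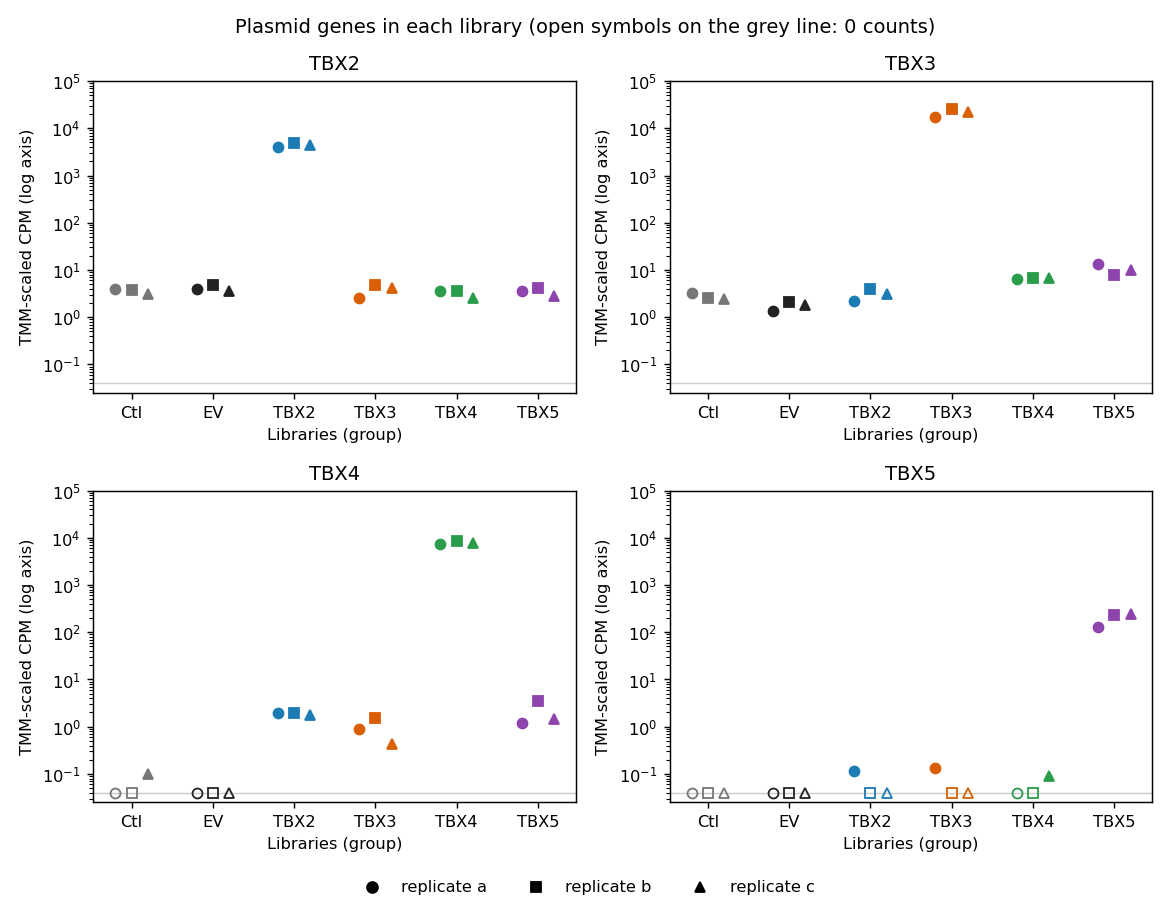
TMM-scaled CPM (log axis) of TBX2, TBX3, TBX4 and TBX5 in the 18 libraries by group, with 1 symbol per library and open symbols on the grey line for 0 counts. Each gene is highest in its own group; TBX4 is also above the controls in the TBX2, TBX3 and TBX5 libraries, and TBX3 is above them in the TBX4 and TBX5 libraries.

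Per library, TBX2 took 0.483% of the TBX2 counts in replicate a (95% Wilson interval 0.478% to 0.488%), 0.524% in b and 0.375% in c. TBX3 took 1.54%, 1.84% and 2.98% in TBX3 replicates a, b and c. The TBX3 share was highest in the library where the most counted gene took the least. TBX4 took 0.947%, 1.06% and 0.927% in its 3 libraries in the same order, or 0.947% and 1.06% without replicate c. TBX5 took 0.0146%, 0.0157% and 0.0162%. Because the TBX5 plasmid is a mouse sequence, its reads are counted only where they align to the human gene, and the level of this plasmid cannot be set against the other 3.

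Per kb of exon, the transfected genes stood at 732 ± 60.5 for TBX2, 3665 ± 649 for TBX3, 1988 ± 120 for TBX4 (1999 without replicate c) and 45.0 ± 14.0 for TBX5 in CPM per kb (SD, n = 3 each). MGA, the member with the highest level per kb in the controls, had 8.60 ± 0.354 CPM per kb there (SD, n = 6). The lengths used are those of the annotated genes, and the part that each plasmid carries is not given in the sources used here. The levels per kb of the transfected genes therefore cannot be ranked against each other or set against that of MGA.

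In the controls, the family was expressed at very unequal levels per kb of exon. After MGA came TBX18, a factor of the epicardium and sinus node, at 4.20 ± 0.335 CPM per kb (SD, n = 6). TBX20, a heart factor, had 1.39 ± 0.252 and TBX1, a factor of the pharyngeal arches, had 0.800 ± 0.132 CPM per kb. The libraries of MGA, TBX18 and TBX20 did not overlap in this order, and the lowest TBX20 library (1.16) was above the highest TBX1 library (0.991). TBX2 followed at 0.632 ± 0.0952 CPM per kb and overlapped TBX1. The place of TBX20 rests on its short exon length of 1828 bases. In CPM, its control mean of 2.54 was below those of TBX2 (3.84) and TBX1 (3.14), with overlapping libraries. TBX3 stood at 0.382 ± 0.114, and its highest library (0.558) reached above the lowest of TBX2 (0.504). TBX6, known from the paraxial mesoderm, and TBX15, known from the skeleton, had 0.124 ± 0.0517 and 0.102 ± 0.0840 CPM per kb and overlapped each other. TBX4 and TBX5 had 1 and 0 counts over the 6 controls, below the floor.

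**Figure D2:**
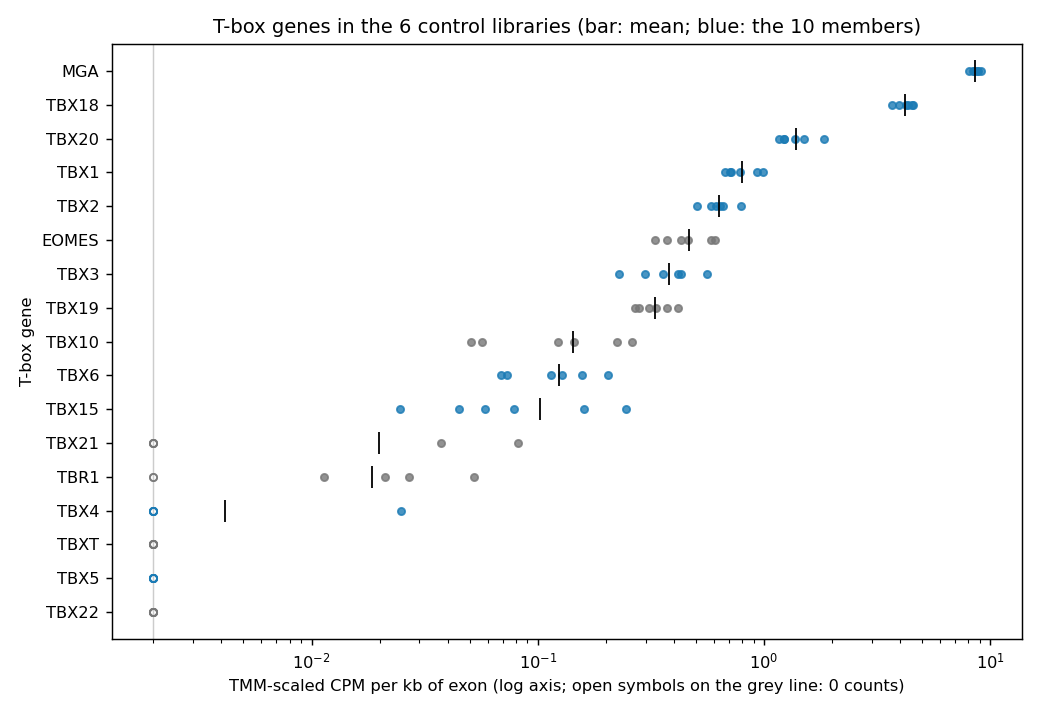
TMM-scaled CPM per kb of exon (log axis) of the 17 T-box genes in the 6 control libraries, with a point per library, a bar for the mean and open symbols on the grey line for 0 counts. MGA, TBX18 and TBX20 lie highest, at 8.60, 4.20 and 1.39 CPM per kb on average, and TBX5, TBXT and TBX22 had 0 counts.

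The 7 human T-box genes outside the 10 members were low as well. EOMES, known from early mesoderm and lymphocytes, had 0.464 ± 0.111 CPM per kb in the controls (SD, n = 6), and TBX19, a pituitary factor, had 0.331 ± 0.0562. TBX10 stood at 0.143 ± 0.0856, TBX21 at 0.0198 ± 0.0337 and TBR1 at 0.0186 ± 0.0197 CPM per kb. TBX22 and TBXT had 0 counts in the controls.

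On the GRCh37 build, with GENCODE gene models, TBX2 (chromosome 17, 59477204 to 59486827) and TBX4 (59529765 to 59562471) lie 42.9 kb apart on the plus strand. TBX5 (chromosome 12, 114791716 to 114846247) and TBX3 (115108060 to 115121980) lie 262 kb apart on the minus strand. MGA spans 41913332 to 42065279 on chromosome 15, TBX18 spans 85397069 to 85474316 on chromosome 6, and TBX20 spans 35242042 to 35293711 on chromosome 7. TBX1 spans 19744226 to 19771116 on chromosome 22, TBX6 30097114 to 30103245 on chromosome 16 and TBX15 119425669 to 119532179 on chromosome 1. The genes thus form 2 neighbouring pairs, each holding 1 gene of the TBX2 and TBX3 kind and 1 of the TBX4 and TBX5 kind. Counting without strand cannot separate antisense reads, and 7.02% of TBX5 exon bases, 3.29% of those of TBX3, 7.13% of those of TBX1, 3.36% of those of MGA and 0.460% of those of TBX2 lie in another gene as well.

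RefSeq promoters (GRCh38.p14) were matched for 7 of the 10 members, with 10 start sites; TBX2, TBX3 and TBX15 had no entry. The 250 bases before the start are shown for TBX4, TBX1 and MGA, which hold a searched motif, and for TBX18, which holds none and changed beside MGA. Capitals mark GGTGTG (the T-box core, or CACACC on the other strand) and CACGTG (the E-box that MAX dimers bind).
TBX4 (chr17:61456238-61456487, plus strand): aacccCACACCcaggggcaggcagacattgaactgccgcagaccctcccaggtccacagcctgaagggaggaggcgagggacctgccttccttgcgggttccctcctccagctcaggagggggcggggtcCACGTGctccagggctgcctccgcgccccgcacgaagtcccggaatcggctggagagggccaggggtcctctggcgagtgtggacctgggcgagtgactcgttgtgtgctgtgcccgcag
TBX1 (chr22:19756453-19756702, plus strand): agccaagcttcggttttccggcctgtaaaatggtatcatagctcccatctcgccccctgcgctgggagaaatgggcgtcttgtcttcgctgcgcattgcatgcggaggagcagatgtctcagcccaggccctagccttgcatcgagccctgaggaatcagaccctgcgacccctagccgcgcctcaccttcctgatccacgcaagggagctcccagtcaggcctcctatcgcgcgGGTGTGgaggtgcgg
MGA (chr15:41620974-41621223, plus strand, the first of 3 start sites): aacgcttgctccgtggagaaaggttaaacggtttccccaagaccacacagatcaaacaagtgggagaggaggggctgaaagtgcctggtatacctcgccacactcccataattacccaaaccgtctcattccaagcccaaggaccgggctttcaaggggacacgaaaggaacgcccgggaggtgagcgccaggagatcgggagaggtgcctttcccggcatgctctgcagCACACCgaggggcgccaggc
TBX18 (chr6:84764599-84764848, minus strand): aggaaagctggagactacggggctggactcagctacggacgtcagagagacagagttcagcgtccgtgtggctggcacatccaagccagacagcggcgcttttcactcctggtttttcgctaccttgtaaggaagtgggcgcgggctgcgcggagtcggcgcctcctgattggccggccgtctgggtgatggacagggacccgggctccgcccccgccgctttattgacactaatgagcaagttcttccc
The core GGTGTG was found at 3 of the 10 start sites, those of TBX4 and TBX1 and the first of MGA, and TBX18 had none. It is in 14.2% of the 35116 promoters. CACGTG was found in TBX4 alone among the members, and is in 6.34% of all promoters. The longer site AGGTGTGA was in none of the members' windows and is in 0.786% of all. A match describes letters in a window and not a bound site.

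A gene was tested if 10 or more of the 18 libraries held over 5 counts of it, which kept 15576 genes and 7 of the 10 members. TBX4 passed this filter only through the transfected groups, so it had to differ. By the quasi-likelihood test of edgeR, p-values were adjusted over all tested genes by the method of Benjamini and Hochberg, with a threshold of 0.1. Then 4 of the 7 members passed with TBX2, where 32.6% of all tested genes did. With TBX3, 2 of 7 passed (14.9% of all genes), with TBX4 3 of 7 (13.0%) and with TBX5 3 of 7 (12.7%). Without TBX4 replicate c, 2 of 7 passed with TBX4, and 8.89% of all genes. Apart from the group's own plasmid gene, these were TBX4, TBX18 and MGA with TBX2, TBX4 with TBX3, TBX1 and TBX3 with TBX4, and TBX3, TBX4 and TBX20 with TBX5. The plasmid genes and TBX4 were bound to pass with these plasmids, so they say nothing beside these shares. Without them 2 of 5 members passed with TBX2, 0 of 5 with TBX3, 2 of 6 with TBX4 (1 without replicate c) and 2 of 6 with TBX5. In EV against Ctl, 0 of 7 members passed, next to 0.385% of all genes; 1 had an unadjusted p under 0.05 with edgeR, and DESeq2 also called 0. The 4 contrasts share the 6 control libraries, so their calls are not independent of each other.

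Libraries that lay beyond all 6 controls give another view. Of the tested members, 2 lay above and 1 below with TBX2, and 24.5% of all tested genes lay beyond the controls there in either direction. With TBX3, 2 lay above and 0 below (14.6% of all genes). With TBX4, 2 lay above and 1 below (12.6%), the same members without replicate c (19.1% of all genes). With TBX5, 3 lay above and 0 below (14.0%). The plasmid gene of the group and TBX4 were among those above in each contrast where tested.

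Outside its own plasmid group, TBX3 was the member with the largest change after TBX4, which had 0 or 1 counts per control. In the TBX4 libraries it had 6.54, 6.67 and 6.83 CPM in replicates a, b and c, and in the TBX5 libraries 13.2, 7.72 and 9.84. Ctl libraries had 3.32, 2.57 and 2.47 CPM of TBX3, and EV libraries 1.37, 2.14 and 1.78. All 6 libraries of the TBX4 and TBX5 groups were above all 6 controls, and TBX5 replicate a was the highest. In counts this was 74 to 86 reads per TBX4 library and 39 to 119 per TBX5 library, against 12 to 34 per control.

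With TBX4, TBX3 rose by 1.55 ± 0.17 on the log2 scale (SE; 2.93-fold; edgeR's adjusted p = 7e-07). Without TBX4 replicate c the rise was 1.54 ± 0.19 (adjusted p = 7.93e-06). With TBX5, it rose by 2.22 ± 0.20 (4.67-fold; adjusted p = 2.9e-07). Against EV alone the log2 fold changes were 1.90 and 2.58, and against Ctl alone 1.26 and 1.93, for TBX4 and TBX5. The controls themselves did not overlap for TBX3, since each EV library was below each Ctl library; that difference had an edgeR adjusted p of 0.431. In the TBX2 libraries TBX3 had 2.17, 3.91 and 3.08 CPM, which overlapped the controls, and the log2 fold change was 0.44 ± 0.25 (adjusted p = 0.208). Set against EV alone, that value was 0.80 with an adjusted p of 0.0451, and it also passed without Ctl replicate a (0.58, 0.0925) or TBX2 replicate a (0.65, 0.0976). It shrank to 0.15 against Ctl alone (0.735) and to 0.17 without TBX2 replicate b (0.737).

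Between groups, TBX3 was higher with TBX4 than with TBX2 by 1.11 ± 0.23 on the log2 scale (edgeR's adjusted p = 0.00188; 1.10 ± 0.25 and 0.00649 without TBX4 replicate c). It was higher with TBX5 than with TBX2 by 1.78 ± 0.23 (adjusted p = 3.22e-06). The log2 difference between TBX5 and TBX4 was 0.67 ± 0.19 and did not pass (adjusted p = 0.184; 0.68 ± 0.21 and 0.302 without TBX4 replicate c). The order of mean TBX3 levels, its own group apart, was TBX5 (10.2 CPM), TBX4 (6.68, or 6.60 without replicate c), TBX2 (3.05), Ctl (2.79) and EV (1.76). The antisense gene TBX3-AS1 had at most 2 counts in any library. Whether the added TBX3 reads come from the cells' own gene or from plasmid of another culture was not tested.

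TBX4 reads also appeared outside the TBX4 group. TBX2 libraries had 17, 19 and 11 counts in replicates a, b and c, TBX3 libraries 7, 10 and 6, and TBX5 libraries 11, 18 and 8. The 3 EV libraries and 2 of the 3 Ctl libraries had 0, and Ctl replicate c had 1. So each of these 9 libraries was above the floor of 3 counts and above each control. In CPM, the TBX2 libraries had 1.94, 1.90 and 1.78, the TBX3 libraries 0.915, 1.51 and 0.420, and the TBX5 libraries 1.22, 3.56 and 1.49. The TBX4 libraries themselves had 85197 to 109159 counts of TBX4. Whether the TBX4 reads outside that group come from the cells' own gene or from plasmid of another culture or library was not tested.

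Summed over libraries, 47 counts with TBX2 against 1 in the 6 controls gave a ratio of 124 after scaling (exact 95% counting interval 21.1 to 4985). With TBX3, 23 counts gave a ratio of 52.7 (8.56 to 2171), and with TBX5, 37 counts gave 124 (21.0 to 5042). Since TBX4 met the filter only through transfected groups, its edgeR calls in these 3 contrasts add no support, and DESeq2 gave it no adjusted p there. TBX4 was lower with TBX3 than with TBX2, by 1.20 ± 0.39 on the log2 scale (edgeR's adjusted p = 0.0446), and higher with TBX5 than with TBX3 by 1.22 ± 0.41 (adjusted p = 0.0880). TBX5 had 0 or 1 count per library in the TBX2, TBX3 and TBX4 groups. TBX2 had 2.58 to 4.82 CPM in the TBX3, TBX4 and TBX5 libraries, a range that overlapped the controls, and passed the test in none of those 3 contrasts.

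The lncRNA C17orf82, which lies between TBX2 and TBX4, had 1 to 14 counts per library, and TBX2-AS1 had 3 to 23. Of 13 listed genes near or antisense to members, 8 were tested. With TBX2, 1 of 8 rose, BCAS3, a cytoskeletal protein gene beside TBX2 (0.41 ± 0.11 on the log2 scale, edgeR's adjusted p = 0.00796). With TBX3, 1 of 8 rose, MED13L, a Mediator subunit gene that starts at 116395710 on the chromosome of TBX3 (0.31 ± 0.06, adjusted p = 0.000852). With TBX4, 0 of 8 passed, with or without replicate c. MED13L stood near the threshold there (-0.14, adjusted p = 0.101) and passed with the size factors of DESeq2 (0.0988), against EV alone (0.0868), and without Ctl replicate a (0.0785) or EV replicate c (0.0777). With TBX5, MED13L fell by 0.18 (SE 0.06, adjusted p = 0.0806), which was the 1 call of 8. That call was lost without Ctl replicate b (0.103) or c (0.105), EV replicate a (0.145) or b (0.146), and TBX5 replicate a (0.288), b (0.130) or c (0.145), against Ctl alone (0.269) or EV alone, and by library totals (-0.49, 0.299). The shares called were 12.5%, 12.5%, 0% and 12.5% from TBX2 to TBX5, where all tested genes had 32.6%, 14.9%, 13.0% and 12.7%. Library totals also ended the calls of BCAS3 (0.304) and of MED13L with TBX3. The median log2 fold change of the 8 was -0.01, 0.05, -0.02 and 0.08 in the order TBX2 to TBX5, near that of all genes, which was between -0.01 and 0.00.

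MGA, the MAX partner, had the smallest SD relative to its mean among the tested members over the 6 controls. It had 154, 160 and 154 CPM in TBX2 replicates a, b and c, against 162, 173 and 183 CPM as the lowest, median and highest control. TBX3 libraries had 176, 191 and 178 CPM, TBX4 libraries 169, 159 and 157, and TBX5 libraries 163, 171 and 164. The 3 TBX2 libraries lay just below all controls, while the other groups overlapped them.

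With TBX2, MGA fell by 0.14 on the log2 scale (SE 0.06; edgeR's adjusted p = 0.0668), a level 0.904 times that of the controls. This call was lost without Ctl replicate a (adjusted p = 0.103), Ctl replicate c (0.132), TBX2 replicate a (0.169) or TBX2 replicate c (0.168), with the replicate letter as a block (0.107), against EV alone (0.182) or Ctl alone (0.144), and when scaled by library totals (0.817). In the other contrasts the log2 fold change was 0.07 ± 0.06 with TBX3, -0.10 ± 0.06 with TBX4 and -0.06 ± 0.06 with TBX5, none past the threshold. Without TBX4 replicate c it was -0.07 ± 0.06. MGA was higher with TBX3 than with TBX2 by 0.22 ± 0.06 (edgeR's adjusted p = 0.0211).

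TBX18, too, was lowest with TBX2. It had 33.1, 30.8 and 29.1 CPM in the TBX2 libraries a, b and c, and 31.7, 37.1 and 39.2 CPM as the lowest, median and highest control. The other groups held 36.2 to 36.6 CPM with TBX3, 32.5 to 35.0 with TBX4 (34.4 to 35.0 without replicate c) and 36.8 to 37.5 with TBX5. The TBX2 group was the lowest on average but overlapped EV. With TBX2, TBX18 fell by 0.23 on the log2 scale (SE 0.08; edgeR's adjusted p = 0.0325), a call lost without TBX2 replicate c (adjusted p = 0.136) against EV alone (0.198) and when scaled by library totals (0.663). It was higher with TBX3 than with TBX2 by 0.23 ± 0.08 (adjusted p = 0.0655) and with TBX5 than with TBX2 by 0.26 ± 0.08 (0.0550). DESeq2 called 4 and 2 members in these 2 pairs, where edgeR called 5 and 4, so these calls may depend on the tool. TBX18-AS1, its antisense partner, had 3 to 16 counts per library and passed in no contrast with the controls.

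**Figure D3:**
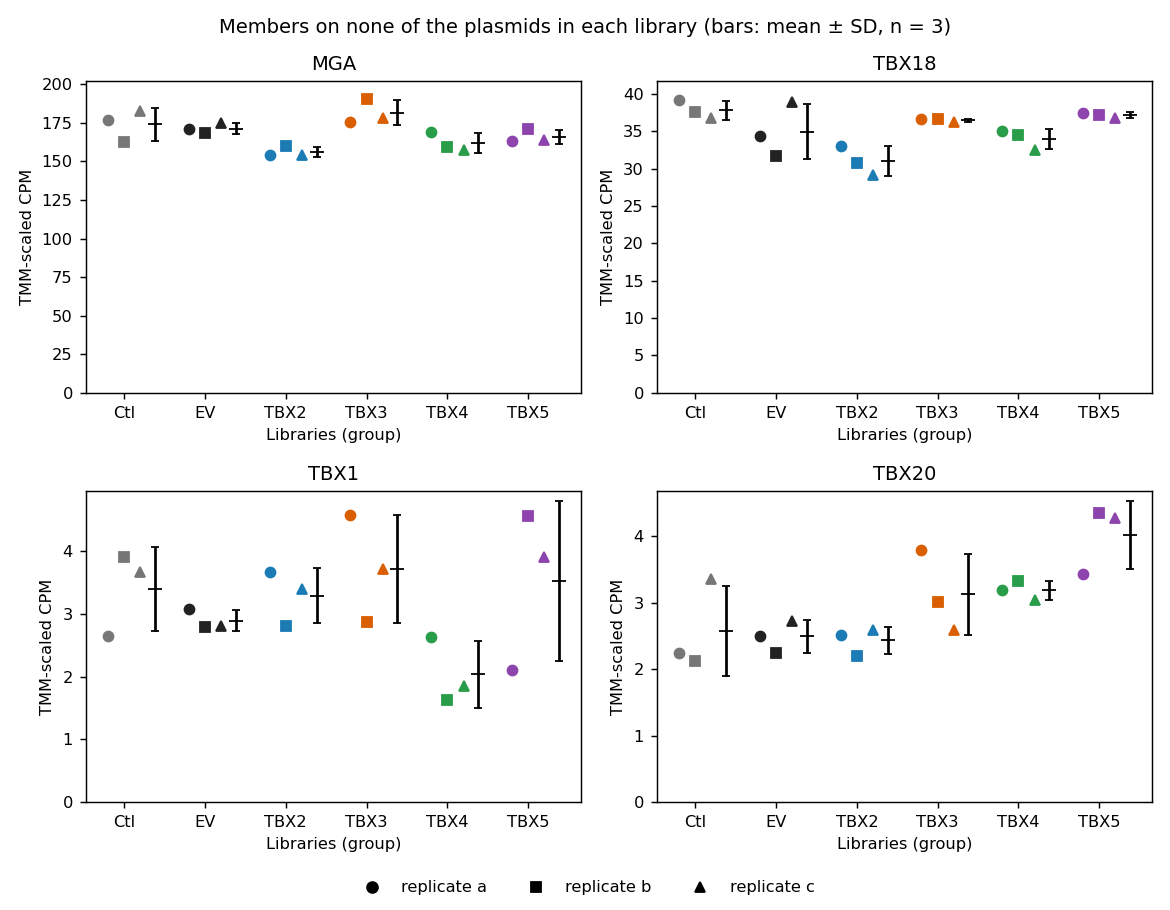
TMM-scaled CPM of MGA, TBX18, TBX1 and TBX20 in the 18 libraries by group, with 1 symbol per library and bars for mean ± SD (n = 3). MGA lies at 154 to 160 CPM with TBX2 and 162 to 183 in the controls, TBX1 is lowest with TBX4, and TBX20 is highest with TBX5.

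TBX1 had low counts, 19 to 53 per library. Its TBX4 libraries stood at 2.63, 1.63 and 1.84 CPM in replicates a, b and c, against 2.64, 2.94 and 3.89 CPM as the lowest, median and highest control. They were below all controls, replicate a by a narrow margin. With TBX4, TBX1 fell by 0.62 on the log2 scale (SE 0.20; edgeR's adjusted p = 0.0550). That call was lost without TBX4 replicate c (-0.56 ± 0.23, adjusted p = 0.172), TBX4 replicate b (0.277) or Ctl replicate b (0.111), against EV alone (0.230), with DESeq2 (0.129) and when scaled by library totals (-0.36, 0.301). TBX1 was lower with TBX4 than with TBX3 by 0.87 ± 0.25 (adjusted p = 0.0313), and without TBX4 replicate c the log2 difference was -0.81 ± 0.27 (0.0873). TBX5 replicates a, b and c spread from 2.10 to 4.55 CPM and covered the whole range of the controls.

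TBX20 had 16 to 43 counts per library. In the TBX5 group it stood at 3.43, 4.36 and 4.27 CPM in replicates a, b and c, above the controls (2.12, 2.38 and 3.36 CPM as lowest, median and highest). TBX4 libraries had 3.04 to 3.33 CPM (3.19 to 3.33 without replicate c) and TBX2 libraries 2.21 to 2.59, both overlapping the controls. TBX3 libraries had 3.79, 3.01 and 2.59 CPM in replicates a, b and c and overlapped both the controls and the TBX5 group. Scaled by library totals, TBX20 passed with TBX4 (0.58, edgeR's adjusted p = 0.0787). With TBX5, TBX20 rose by 0.62 ± 0.21 on the log2 scale (1.53-fold; edgeR's adjusted p = 0.0707). The call was lost without Ctl replicate a (adjusted p = 0.103), Ctl replicate b (0.112), EV replicate b (0.107), TBX5 replicate b (0.197) or TBX5 replicate c (0.208), with DESeq2 (0.132), without a filter (0.131), against EV alone (0.122) or Ctl alone (0.193), and when scaled by library totals (0.31, 0.510). TBX20 was higher with TBX5 than with TBX2 by 0.70 ± 0.24 (adjusted p = 0.0698). In that pair edgeR called 4 members and DESeq2 called 2, so this call may depend on the tool.

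**Figure D4:**
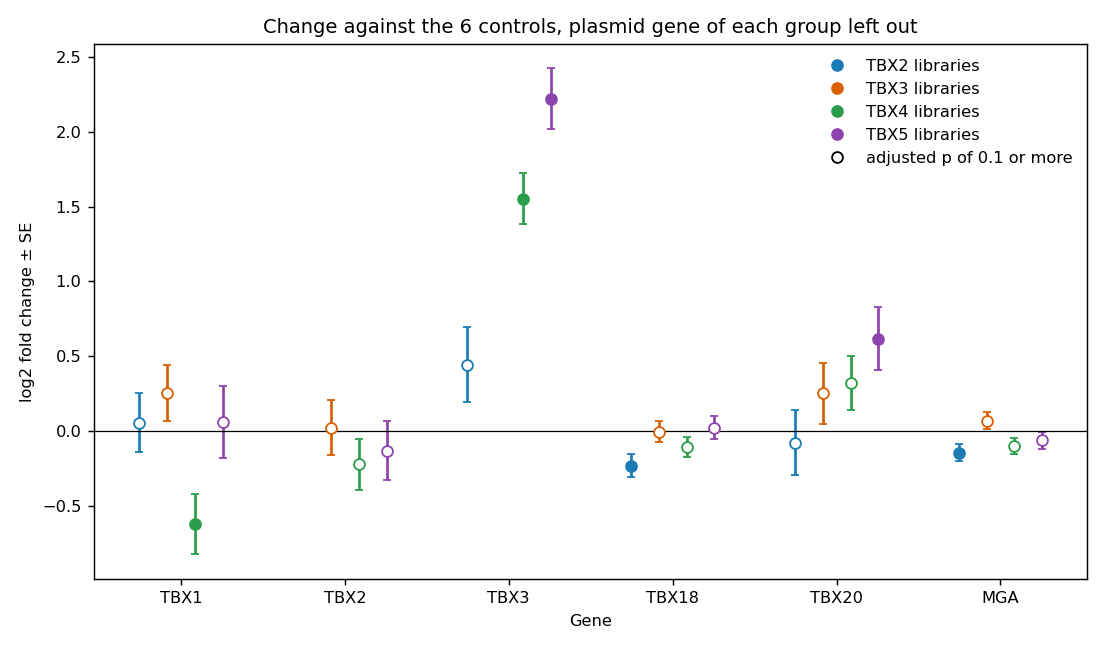
log2 fold change ± SE against the 6 controls of 6 tested members in the 4 contrasts, each group's own plasmid gene left out, with filled symbols for an adjusted p under 0.1. TBX3 is up by 1.55 with TBX4 and 2.22 with TBX5, TBX1 is down by 0.62 with TBX4, and MGA and TBX18 are slightly down with TBX2, by 0.14 and 0.23.

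TBX5, TBX6 and TBX15 failed the filter and were compared by an exact two-sided permutation test of log2(CPM + 0.5), whose smallest possible p with 3 against 6 libraries is 0.0119. TBX5 reached that value in its own group (p = 0.0119 by the exact permutation test), where its mean was at least 585-fold higher than the highest control floor of 3 counts per library. TBX6 had 0 to 10 counts in any library, with exact permutation p-values between 0.333 and 1 in the 4 contrasts. TBX15 had 0 to 13 counts; its highest mean was with TBX2, at 0.917 ± 0.343 CPM (SD, n = 3) against 0.442 ± 0.365 (SD, n = 6), with an exact permutation p of 0.107. Without TBX4 replicate c, the exact permutation p with TBX4 was 0.107 for TBX6 and 0.536 for TBX15, where 0.0357 is the smallest possible. With a pseudocount of 0.1 CPM the p of TBX15 with TBX2 was 0.0952. At counts this low, no difference of either gene reached an exact permutation p under 0.05.

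Of the 7 other T-box genes, 2 were tested. TBX19 rose with TBX2 (0.68 ± 0.28 on the log2 scale, edgeR's adjusted p = 0.0809) and with TBX5 (0.88 ± 0.27, 0.0476), from 1.03 to 1.59 CPM in the controls to 1.30 to 3.24 and 1.77 to 3.17 CPM. EOMES rose with TBX4 (0.63 ± 0.21, adjusted p = 0.0646), where its 3 libraries at 2.47 to 2.71 CPM were above all controls (1.21 to 2.21). Without TBX4 replicate c the EOMES value was 0.63 ± 0.25 and did not pass (0.135). EOMES also lost its call without EV replicate a (0.109) or c (0.132) and TBX4 replicate a (0.129) or b (0.196). The TBX19 call with TBX2 was lost without Ctl replicate a (0.104) or c (0.113), EV replicate a (0.124) or b (0.123), and TBX2 replicate a (0.170) or c (0.450), the last of which lowered the log2 fold change to 0.36. The TBX19 call with TBX5 was lost without TBX5 replicate b (0.218) or c (0.152), against EV alone (0.127) or Ctl alone (0.135), and by library totals (0.56, 0.349). With TBX2 it was also lost with DESeq2 (0.125), by library totals (0.267), without a filter (0.149) and against EV (0.177) or Ctl alone (0.183). EOMES was also lost with DESeq2 (0.182) and against Ctl alone (0.224), and it passed with TBX2 without Ctl replicate b (0.0826) or TBX2 replicate c (0.0528).

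Direct comparisons of the TBX groups came from 1 fit of all 18 libraries. Over 6 pairs and 7 tested members, 18 of 42 comparisons passed, with or without TBX4 replicate c. Of these, 9 of 9 concerned a gene on a plasmid of the pair and 9 of 33 another member. The calls of another member include those of TBX4, which met the filter only through transfected groups. Over all tested genes, edgeR called 15.5% for TBX3 against TBX2, 12.3% for TBX4 against TBX2 and 12.1% for TBX5 against TBX2. It called 9.97% for TBX4 against TBX3, 7.41% for TBX5 against TBX3 and 0.539% for TBX5 against TBX4. The 9 calls of other members were TBX4, TBX18 and MGA between TBX3 and TBX2, TBX3 between TBX4 and TBX2, and TBX3, TBX18 and TBX20 between TBX5 and TBX2. The last 2 were TBX1 between TBX4 and TBX3 and TBX4 between TBX5 and TBX3. Between TBX5 and TBX4, the plasmid gene TBX4 was the 1 call. DESeq2 called 16 of the 42 comparisons. It called 4 members for TBX3 against TBX2 and 2 for TBX5 against TBX2, where edgeR called 5 and 4. For TBX4 against TBX3 it called 4 members, where edgeR called 3.

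Genes of the MAX network, which encode MAX, MLX and proteins that pair with them, were followed next. Of 12 listed genes, 9 were tested; MYCN had 0 counts in all libraries, and MYCL and MLXIPL had at most 8. MAX itself did not pass in any of the 4 contrasts, with log2 fold changes of 0.13 to 0.19. With TBX2, 1 of 9 rose and 2 fell, with TBX3 2 rose and 0 fell, with TBX4 1 rose and 1 fell (the same numbers without replicate c), and with TBX5 1 rose and 0 fell. The shares called were 33.3%, 22.2%, 22.2% and 11.1%, where all tested genes had 32.6%, 14.9%, 13.0% and 12.7%. The median log2 fold change of the 9 was 0.05, 0.02, -0.03 and 0.02 in that order.

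MXD1, a MAX partner that opposes MYC, was the 1 member of the network called in the same direction in all 4 contrasts. It had 9.39, 10.9 and 11.8 CPM as the lowest, median and highest control, and group means of 16.9 ± 0.938 CPM in TBX2 libraries, 16.6 ± 1.36 in TBX3, 14.9 ± 0.577 in TBX4 (mean 14.8 without replicate c) and 15.8 ± 1.77 in TBX5 (SD, n = 3). None of the 12 TBX libraries overlapped a control. Its log2 fold change was 0.65 ± 0.10 with TBX2 (edgeR's adjusted p = 3.12e-05), 0.60 ± 0.10 with TBX3 (0.000231), 0.46 ± 0.09 with TBX4 (0.00149; 0.46 ± 0.11 and 0.00818 without replicate c) and 0.56 ± 0.11 with TBX5 (0.0021). Scaled by library totals, MXD1 lost its call with TBX3 (0.51) and TBX5 (0.25, adjusted p = 0.509). Of the other calls, MXD3 fell by 0.92 with TBX2, where 43.7% of its exon bases lie in other genes, MXD4 fell by 0.30 with TBX2, MNT fell by 0.47 with TBX4 (0.48 without replicate c), and MYC rose by 0.18 with TBX3. How many of all tested genes were called alike with each of the 4 plasmids, or overlapped no control there, was not counted. Those contrasts also share the 6 control libraries. MXD1, like RYBP, EGR1 and TLE1 below, therefore cannot be set against a background rate of such shared calls.

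**Figure D5:**
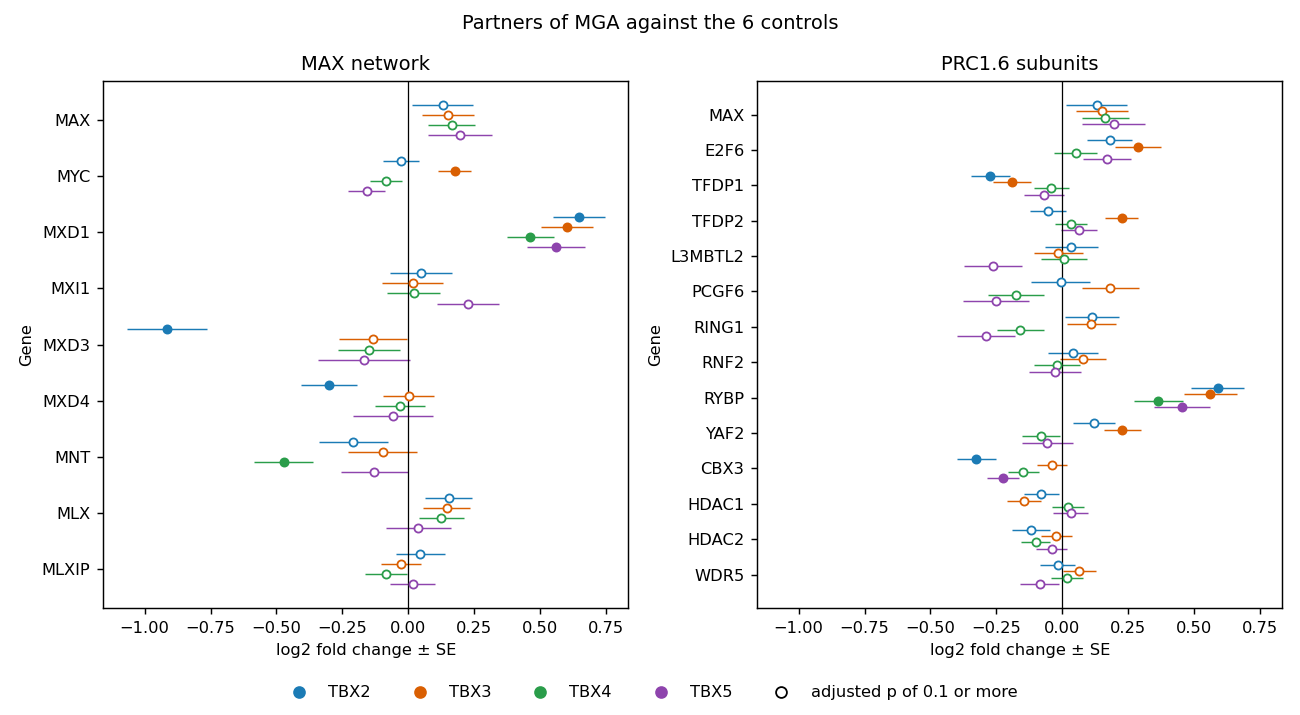
log2 fold change ± SE against the 6 controls of the tested genes of the MAX network and of PRC1.6 subunits in the 4 contrasts, with filled symbols for an adjusted p under 0.1. MXD1 (0.46 to 0.65) and RYBP (0.36 to 0.59) are up in all 4 contrasts, and MAX (0.13 to 0.19) has no filled symbol.

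All 14 listed subunits of PRC1.6 were tested. With TBX2, 1 rose and 2 fell, with TBX3 4 rose and 1 fell, with TBX4 1 rose and 0 fell (also without replicate c), and with TBX5 1 rose and 1 fell. These are 21.4%, 35.7%, 7.14% and 14.3% of the subunits, against 32.6%, 14.9%, 13.0% and 12.7% of all tested genes. RYBP, a RING1-binding subunit, was called in the same direction in all 4 contrasts. It had 10.5, 11.7 and 13.6 CPM as the lowest, median and highest control, and 16.7 to 20.1 CPM with TBX2, 15.5 to 20.2 with TBX3, 13.9 to 16.3 with TBX4 (13.9 to 16.3 without replicate c) and 14.8 to 17.6 with TBX5, again with no overlap. The log2 fold change was 0.59 ± 0.10 (edgeR's adjusted p = 0.000122), 0.56 ± 0.10 (0.000692), 0.36 ± 0.09 (0.0128; 0.36 ± 0.11 and 0.0485 without TBX4 replicate c) and 0.45 ± 0.11 (0.00991) from TBX2 to TBX5. Scaled by library totals, RYBP lost its call with TBX3 (0.47) and with TBX5 (0.13, adjusted p = 0.724). The median over the 14 subunits was 0.01, 0.09, -0.01 and -0.05.

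Of 7 germline genes that PRC1.6 keeps silent, 3 were tested. DDX4, DAZL, MAEL and SLC25A31 had at most 4 counts in any library and were not tested. SMC1B, a meiotic cohesin subunit, had 3.71 to 5.83 CPM in the TBX2 libraries against 1.34, 2.03 and 3.23 CPM as the lowest, median and highest control, with no overlap. It rose by 1.11 ± 0.24 on the log2 scale with TBX2 (edgeR's adjusted p = 0.00124), the 1 call of this list in the 4 contrasts (33.3% of the 3, where 32.6% of all tested genes passed), and stood at 1.57 ± 0.0926, 2.00 ± 0.327 and 1.27 ± 0.420 CPM with TBX3, TBX4 and TBX5 (SD, n = 3; 2.16 with TBX4 without replicate c). SMC1B was lower with TBX3, TBX4 and TBX5 than with TBX2 in the direct comparisons, by 1.52, 1.14 and 1.73 on the log2 scale. STAG3 and SYCP3, also parts of the meiotic chromosome axis, did not pass against the controls. In the direct comparisons STAG3 was lower with TBX3 and with TBX5 than with TBX2, by 0.25 and 0.29 (edgeR's adjusted p = 0.0781 and 0.0616).

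Of 19 listed cofactors of T-box proteins, 17 were tested; with TBX2, 2 rose and 4 fell, with TBX3 3 rose and 1 fell, with TBX4 1 rose and 2 fell (the same numbers without replicate c), and with TBX5 2 rose and 3 fell. From TBX2 to TBX5 this is 35.3%, 23.5%, 17.6% and 29.4% of them, against 32.6%, 14.9%, 13.0% and 12.7% of all tested genes. NKX2-5 and GATA4, heart partners of TBX5 and TBX20, had at most 7 counts in any library. EGR1, an early response factor that can pair with TBX2, rose in all 4 contrasts. Its controls spread from 5.13 to 12.6 CPM with a median of 6.41, and it had 72.1, 75.4 and 105 CPM as the lowest, median and highest with TBX2, 38.4, 39.3 and 55.1 with TBX3, 14.3, 15.8 and 16.4 with TBX4 (14.3 and 16.4 without replicate c) and 14.8, 21.7 and 24.0 with TBX5. No TBX library overlapped a control.

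The log2 fold change of EGR1 was 3.45 ± 0.16 with TBX2, 2.51 ± 0.17 with TBX3, 1.02 ± 0.17 with TBX4 (1.01 ± 0.19 without replicate c) and 1.35 ± 0.21 with TBX5, with adjusted p-values of 2.15e-13, 1.54e-10, 0.000295 (0.00163) and 0.000288. EV libraries had 10.1 ± 3.23 CPM of EGR1 against 5.61 ± 0.633 in Ctl (SD, n = 3; edgeR's adjusted p = 0.139). Against EV alone, the log2 fold changes were 3.12, 2.18, 0.69 and 1.01 from TBX2 to TBX5. TLE1, a Groucho corepressor, fell in all 4 contrasts, by 0.57, 0.22, 0.40 (0.44 without TBX4 replicate c) and 0.54 on the log2 scale. Its call with TBX3 had an adjusted p of 0.0895 and was lost without each of 6 libraries: Ctl replicate a (0.126), b (0.116) or c (0.138), EV replicate b (0.128), and TBX3 replicate a (0.326) or b (0.206). It was also lost with DESeq2 (0.152), without a filter (0.117), in 1 fit of 18 libraries (0.101), against EV alone (0.291) and by library totals, which ended the TLE1 calls with TBX4 (-0.13, 0.548) and TBX5 (-0.84, 0.113) too.

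Of 12 genes described in other cells as bound or regulated by TBX2 to TBX5, 5 were tested. CDH1, GJA1, GJA5, NPPA, FGF10, WNT2 and BMP4 had at most 13 counts per library. With TBX2, 1 of 5 rose and 2 fell, with TBX3 1 rose and 0 fell, with TBX4 1 rose and 0 fell (also without replicate c), and with TBX5 1 rose and 2 fell. With so few genes these are 3, 1, 1 and 3 of 5, where 32.6%, 14.9%, 13.0% and 12.7% of all tested genes passed. CDKN1A, the p21 cell-cycle inhibitor, rose by 0.39 ± 0.13 with TBX2, 0.50 ± 0.12 with TBX4 (0.59 ± 0.13 without replicate c) and 0.82 ± 0.14 with TBX5 on the log2 scale. It also differed between the controls, at 17.6 ± 0.731 CPM in EV and 12.1 ± 0.880 in Ctl (SD, n = 3; edgeR's adjusted p = 0.0171). Against EV alone, CDKN1A kept its call with TBX5 (0.58) and lost it with TBX2 (0.16, 0.258) and TBX4 (0.26, 0.125). Scaled by library totals, it lost its calls with TBX2 (0.39, 0.319) and TBX5 (0.48, 0.303). Against Ctl alone it also passed with TBX3 (0.50, 0.0125). CDKN2A, a senescence gene, fell by 0.35 with TBX2 and 0.33 with TBX5. The CDKN2A call was lost without TBX2 replicate c (adjusted p = 0.110) in that contrast, and without TBX5 replicate a (0.167) or b (0.112) in the other. It was also lost by library totals with TBX2 (0.443) and TBX5 (-0.64, 0.249), and against Ctl alone with TBX5 (0.173).

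Among the cell type markers, KRT8 fell by 0.79 with TBX2, 0.45 with TBX3 and 0.23 with TBX4 and rose by 0.26 with TBX5; scaling by library totals turned the last 2 to 0.03 and -0.07. Without TBX4 replicate c the TBX4 value was -0.17 and did not pass (edgeR's adjusted p = 0.235). The KRT8 call with TBX5 was lost without Ctl replicate a (0.106) or b (0.118) and TBX5 replicate b (0.128) or c (0.15, 0.405) and against EV alone (0.294), and the TBX4 call against Ctl alone (-0.14, 0.308). Library totals ended the calls of KRT8 and KRT18 with TBX3. KRT18 passed with TBX4 against EV alone (0.0471), without a filter (0.0905), with the size factors of DESeq2 (0.0984), and without Ctl replicate a (0.0365) or b (0.0988), and KRT7 did against Ctl alone (-1.08, 0.0725). KRT18 fell by 0.56 with TBX2 and 0.41 with TBX3, and KRT7 rose by 1.37 with TBX2, from 0.939 ± 0.478 CPM (SD, n = 6) to 2.37 ± 0.529 (SD, n = 3).

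The genes whose log2 CPM ran most like that of TBX1, TBX18, TBX20 or MGA, the tested members on no plasmid, over the 18 libraries were found by Pearson's r, as a description; points share the 6 groups and the scaling. For MGA these were MID1IP1 (r = 0.86), a gene the annotation does not name (0.85) and ZNF45 (0.85). For TBX18, UBR7 (0.82) and STXBP5 (0.80) were among them. TBX20 ran most like ATOSB (0.83), FGFR1 (0.81) and LINC01535 (0.81), and TBX1 most like another unnamed gene (0.75), SEC31A (0.75) and FRA10AC1 (0.73). Among the members themselves, r was 0.61 between MGA and TBX18, the highest of the 6 pairs of these 4 genes, and the other 5 pairs lay between 0.14 and 0.32.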

How the data were processed

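RNA-seq libraries of NCI-H1299 cells were analysed from the count table the authors deposited, which holds whole-number read counts per Ensembl gene without normalization. Per the submitters' processing notes and the study's methods, reads were aligned to GRCh37 with STAR 2.3.0 and counted with featureCounts at its default settings, which do not use strand. Groups and replicate letters came from the sample labels. Members and lists were chosen with earlier results of these data known. Symbols and exon lengths came from GENCODE gene models on GRCh37, and 103 of the 104 listed symbols were matched.

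Genes for which 10 or more of 18 libraries held over 5 counts were tested with edgeR 4.0.16 in R 4.3.3 (quasi-likelihood test, TMM, Benjamini-Hochberg, threshold 0.1): each TBX group against the 6 pooled controls in a separate fit, EV against Ctl, and pairs of TBX groups in 1 fit. The standard error is the size of the log2 fold change divided by the root of the F statistic. Members under the filter had an exact permutation test with a pseudocount of 0.5 CPM. CPM used all counts of a library times its TMM factor. The method was tested on simulated data, with an outcome that is not reported here.

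Named were the 10 members, the other T-box genes, in each list the genes called in the same direction in all 4 contrasts or otherwise the 3 with the largest called change, the 3 genes most like each tested member on no plasmid, and the most counted gene; some genes this rule names are not reported. MXD3, MXD4, MNT, MYC, the control genes with few counts and further listed genes were named after their values were seen. Alternatives were DESeq2 1.42.0, its size factors, library totals, TMM without the most counted and plasmid genes, no filter, a filter of 10 or more counts in each library, a block for the letter, EV or Ctl alone, 1 fit of 18 libraries, an FDR of 0.05, each library left out, and pseudocounts of 0.1 and 1 CPM.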

Additional observations from a re-analysis of the deposited data

Results flagged for a closer look

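Among the 6 control libraries, 20 sets of values (17 T-box genes, the library total, the share of the most counted gene and the scaling factor) were checked for 1 library standing apart, by the gap to its nearest neighbour over the whole range; chance flags about 1 in 20 such sets. The sets of TBX5, TBXT and TBX22 could not be flagged, since these genes had 0 counts in all 6 controls. TBX4 stood out with a gap ratio of 1, because Ctl replicate c had 1 count and the other 5 controls had 0. The share of the most counted gene was lowest in EV replicate c, at 12.4%, with a gap ratio of 0.643. The TMM factor was highest in that same library, with a gap ratio of 0.731. Without EV replicate c, the members past the threshold with TBX2, TBX3, TBX4 and TBX5 numbered 4, 2, 3 and 3, as with it.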

How the results depend on the processing

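Leaving out 1 library at a time, the members past the threshold ranged from 2 to 4 with TBX2 (2 without TBX2 replicate c), 2 to 2 with TBX3, 2 to 3 with TBX4, 2 to 3 with TBX5, 0 to 0 in EV against Ctl and 15 to 19 over the pairs. Genes past it ranged from 4099 to 4911, 1545 to 2261, 1223 to 2249, 1067 to 1835, 22 to 230 and 7336 to 9106 in that order. Scaling by library totals gave 2 members with TBX2 and 11 over the pairs, and 1053, 35 and 91 genes with TBX2, TBX3 and TBX5 and 17 in EV against Ctl; the median log2 fold change then lay up to 0.31 from 0 against controls (TBX5) and 0.57 over the pairs. Genes up and down went from 2651 and 2428 to 833 and 220 with TBX2, from 1319 and 997 to 35 and 0 with TBX3, from 1086 and 945 to 2775 and 33 with TBX4, from 1021 and 954 to 37 and 54 with TBX5, from 44 and 16 to 16 and 1 in EV against Ctl, and from 4107 and 4902 to 189 and 7144 over the pairs. DESeq2 gave 1 member with TBX3 and 1 with TBX5, where it gave TBX4 no adjusted p, and 30 genes in EV against Ctl. A filter of at least 10 counts in every library, which drops TBX4, gave 1 member with TBX3. An FDR of 0.05 gave 1239 genes with TBX5, 31 in EV against Ctl and 5914 over the pairs, Ctl alone gave 1192 with TBX5, and no filter gave 129 in EV against Ctl, with 1317 up and 828 down with TBX4 and 881 and 1146 with TBX5. The letter as a block gave 31 genes in EV against Ctl and ended no member's call but that of MGA with TBX2; 10 of 18 libraries correlated best with their own letter, and the mean correlation of a shared letter was 0.00043. Other causes were not tested. Log2 fold changes that turned sign, of which only those of KRT8 had passed the test, were as follows. Library totals gave TBX18 0.104, TBX20 0.199 and MGA 0.182 in EV against Ctl; TBX2 -0.0578, MGA -0.0154 and BCAS3 -0.0235 with TBX3; TBX2 0.0335, TBX18 0.155, MGA 0.167, SMC1B 0.223, CDKN2A 0.0732, MED13L 0.120, KRT8 0.0294 and KRT18 0.0784 with TBX4; TBX1 -0.254, TBX18 -0.284, EOMES -0.207, BCAS3 -0.149 and KRT8 -0.0745 with TBX5. EV alone gave TBX2 -0.0514, TBX18 0.0431, CDKN1A -0.0290, BCAS3 -0.00469 and KRT7 0.0953 with TBX3; SMC1B 0.217 with TBX4; KRT7 0.0364 with TBX5. Ctl alone gave TBX1 -0.0638 with TBX2; TBX1 -0.0592, TBX18 -0.0256 and EOMES -0.0347 with TBX5. No filter gave MED13L -0.00277 with TBX2; TBX18 -0.00897 with TBX5. With a library left out, ranges that crossed 0 were TBX20 -0.147 to 0.214 and MGA -0.0712 to 0.0169 in EV against Ctl; TBX1 -0.0418 to 0.179 and TBX20 -0.127 to 0.0170 with TBX2; TBX2 -0.0969 to 0.199, TBX18 -0.0380 to 0.0176 and TBX19 -0.0199 to 0.310 with TBX3; SMC1B -0.172 to 0.126 with TBX4; TBX1 -0.162 to 0.428, TBX18 -0.00893 to 0.0481, EOMES -0.114 to 0.364 and KRT18 -0.121 to 0.00941 with TBX5. Pseudocounts turned the difference of TBX6 with TBX3 (1 CPM, exact permutation p = 0.917) and TBX5 (0.1 CPM, 0.988) and of TBX15 with TBX5 (0.1 CPM, 0.917). Of 955 alternative values for named genes, 855 kept direction and side, 59 lost the threshold, 9 gained it and 32 turned sign; of 798 with a library left out, 719 kept them or fell to 0, 47 lost it, 8 gained it and 24 turned sign. Counts of 0 to 13 limit TBX6 and TBX15. In bulk RNA, fewer expressing cells and less RNA per cell cannot be told apart.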
